A study of Mus musculus with 17 samples.

Results

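Genes that mark the subfields of the mouse hippocampus were followed after a short loss of sleep. Of 36 listed marker genes, 34 had a value, among 18193 genes measured in all. A gene had a value where at least 1 probe set of the array named that gene and no other, and its value was that of its brightest probe set over the 17 arrays. Map3k15, a CA2 marker, had no such probe set, and the 3 probe sets of Etv1 each named 2 genes. The list was made from known anatomy, but with earlier results of these data known. It held 11 genes of the dentate gyrus, 3 of CA3, 4 of CA2 and 5 of CA1. The other 13 mark several subfields or excitatory neurons at large. The animals were adult male C57BL/6J mice, housed singly under 12 h of light and 12 h of dark and handled on each of 6 days beforehand. Their age is given as 2 months for each animal and as 2 to 4 months in the protocol. In the sleep-deprived group (n = 8 mice) the animals were kept awake by gentle handling in the home cage for 5 h from about the start of the light phase. In the undisturbed group (n = 9 mice) they stayed in their home cages over the same hours. The hippocampus was dissected directly afterwards, in turn from an animal of each group. Each animal gave 1 Affymetrix mouse expression array. No group was handled but allowed to sleep, so lost sleep and the handling cannot be told apart.

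The hippocampus passes signals through a chain of cell fields. Granule cells of the dentate gyrus send mossy fibres to the pyramidal neurons of CA3, and these project to CA1 through the Schaffer collaterals. CA2, a small field between them, has its own inputs and a distinct form of plasticity. Each field keeps a set of genes on for life, many of them transcription factors, adhesion molecules or calcium-binding proteins, and such genes are used to find the fields in tissue sections and sequencing data. In a dissected hippocampus all fields are measured as a mixture, so fewer cells of a field and less RNA per cell cannot be told apart.

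The values are log2 signals, in which a difference of 1 is a doubling. The medians of the 17 arrays lay between 6.14 and 6.22, and single values between 2.90 and 14.78. Of the 34 genes, 33 had a mean signal of at least 6, and the exception was Trpc6. A signal depends on the probes as well as on the RNA, so levels are compared between animals for 1 probe set and never between genes. One tissue next to the hippocampus varied strongly between dissections. Of 12 choroid plexus genes, 11 were measured and their mean, centred on all arrays, ranged from -0.64 to 0.86 in the undisturbed and from -0.63 to 1.10 in the sleep-deprived animals. Ttr, the transthyretin gene that choroid plexus expresses most strongly, spanned 7.12 to 14.27. The list was high in undisturbed replicates 4 and 9 and in sleep-deprived replicates 3, 5 and 7. Sleep-deprived replicate 5 also had the widest gap between 3′ and 5′ probe sets for the Gapdh and actin controls, a measure of RNA quality, at 0.417 against 0.199 to 0.302 in the other arrays.

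After sleep deprivation 33 of the 34 measured subfield markers did not pass the test against the spread between animals. One of the 34 genes fell and none rose at an adjusted p under 0.05, in limma's moderated test with Benjamini-Hochberg adjustment over all genes. Among all genes tested 3.97% passed in either direction, 1.25% as higher and 2.73% as lower. The split depended on the scaling: 227 genes were higher and 496 lower as deposited, 335 and 390 after quantile normalization, and 142 and 611 after median centring. The gene that fell was Emx1. At an unadjusted p under 0.05 the count was 7 of 34, which were Spink8 upward and C1ql3, Stxbp6, Iyd, Neurod6, Man1a and Emx1 downward. Of all genes, 18.6% reached that level. For no member did the 2 groups of arrays separate without overlap, and 0.731% of all genes did so. The members' median difference was -0.037, with 10 above 0 and 24 below. The median of all genes was 0.0016, with 9248 above 0 and 8945 below. The members' split depended on the scaling too. After quantile normalization 7 members that were below 0 as deposited changed sign: Lct, Calb1, Amigo2, Pdzd2, Meis2, Bcl11b and Ociad2. The 2 sets were also not matched for signal, since 6182 of all genes had a mean below 6.

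The precision of these comparisons was high enough to bound most of them. The 95% confidence interval of the difference lay within 1.2-fold in either direction for 27 of the 34 genes, or 79.4%, and for 85.6% of all genes. The 7 genes whose interval reached past 1.2-fold were Dsp, Tdo2, Npnt, Iyd, Spink8, Neurod6 and Man1a. A p above the threshold does not show equal levels, so the main members without a call are given with their interval.

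**Figure D1:**
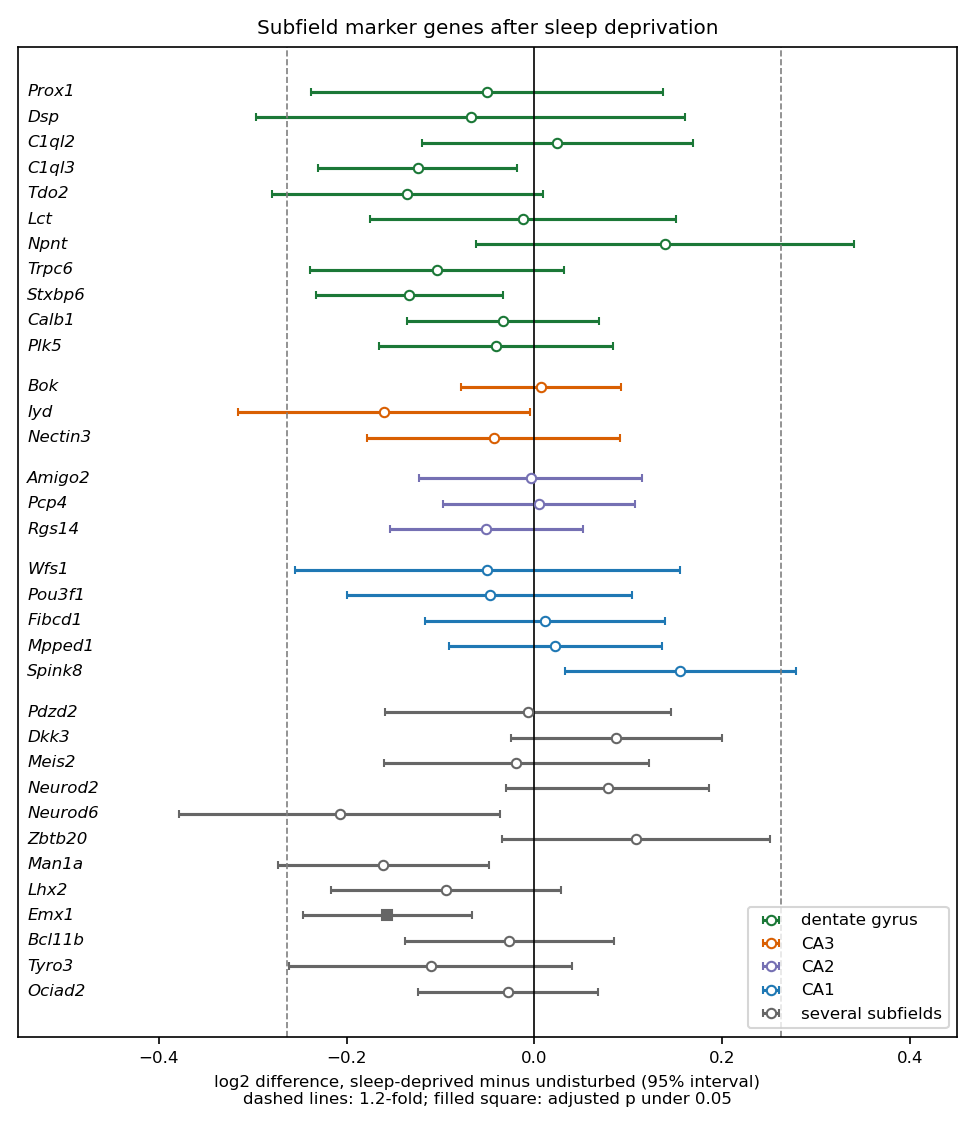
Log2 difference between sleep-deprived (n = 8) and undisturbed (n = 9) animals for each of the 34 measured marker genes, with its 95% confidence interval, grouped and coloured by subfield. Emx1, drawn as a filled square, is the only gene with an adjusted p under 0.05, and the dashed lines mark 1.2-fold.

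Emx1 encodes a homeobox transcription factor of the dorsal telencephalon that is kept in cortical and hippocampal excitatory neurons. Its level in the 9 undisturbed animals was 8.34 at the lowest, 8.45 at the median and 8.56 at the highest. In the 8 sleep-deprived animals it was 8.17, 8.28 and 8.41. All 8 sleep-deprived animals lay below the undisturbed mean, but the groups overlapped, since sleep-deprived replicates 2 and 6 exceeded undisturbed replicates 3, 6 and 7. The means were 8.45 ± 0.074 (SD, n = 9) and 8.29 ± 0.082 (SD, n = 8), so Emx1 fell by 0.16 on the log2 scale (SE 0.043, limma adjusted p = 0.0428), which is 1.11-fold.

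The call on Emx1 stood close to the threshold. It was lost when any of 13 of the 17 arrays was left out, with adjusted p up to 0.0862 without sleep-deprived replicate 5, and kept without undisturbed replicate 3 (0.0385) or 7 (0.0490) or sleep-deprived replicate 2 (0.0310) or 6 (0.0321). It was also lost after quantile normalization (adjusted p = 0.142), with array weights (0.0622) and with the choroid plexus list as a covariate (0.0608), where the difference was still -0.16. The second, dimmer Emx1 probe set, with a mean signal of 5.79, showed a difference of 0.056 (adjusted p = 0.852 among all probe sets). The 250 bases before the RefSeq start of Emx1 lie on chromosome 6 at chr6:85187681-85187930 (GRCm38.p6, plus strand). They are shown because Emx1 is the member that passed, with the letters CANNTG in capitals, the E-box core recognised by basic helix-loop-helix factors such as the products of Neurod2 and Neurod6:
Emx1: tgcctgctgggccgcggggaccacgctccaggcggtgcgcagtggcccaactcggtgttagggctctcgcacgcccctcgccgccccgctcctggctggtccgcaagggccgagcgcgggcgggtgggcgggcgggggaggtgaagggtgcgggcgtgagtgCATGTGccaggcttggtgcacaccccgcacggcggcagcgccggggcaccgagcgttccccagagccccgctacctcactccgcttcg
The window holds 1 such match and has 75.6% G and C, against a median of 52.4% over all promoter windows in the table.

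None of the 11 dentate gyrus genes passed the test. Of their differences 2 were above 0 and 9 below, with a median of -0.051, and a shift of the group as a whole was not tested. Prox1, the homeobox factor that sets and maintains granule cell identity, ranged from 7.09 through a median of 7.39 to 7.73 in undisturbed and from 7.01 through 7.42 to 7.59 in sleep-deprived animals. The ranges overlapped almost fully, and the difference was -0.051 (95% interval -0.24 to 0.14, adjusted p = 0.802). Dsp encodes desmoplakin, a linker of cell junctions to intermediate filaments that among hippocampal neurons marks granule cells. It ranged from 8.88 through 9.33 to 9.61 in undisturbed and from 8.83 through 9.24 to 9.66 in sleep-deprived animals, with a difference of -0.068 (interval -0.30 to 0.16, adjusted p = 0.779).

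The genes for secreted synaptic proteins of granule cells gave small differences. C1ql2 and C1ql3 encode C1q-like proteins that organise receptors at mossy fibre synapses. C1ql2 ranged from 9.89 through 10.06 to 10.34 in undisturbed and from 9.82 through 10.13 to 10.30 in sleep-deprived animals, a difference of 0.024 (interval -0.12 to 0.17, adjusted p = 0.884). C1ql3 ranged from 11.69 through 11.78 to 11.87 and from 11.42 through 11.67 to 11.78. Its difference was -0.12 (adjusted p = 0.186), and 7 of the 8 sleep-deprived animals lay below the undisturbed mean. Npnt, which encodes the matrix protein nephronectin, had the largest positive difference of the dentate list, 0.14 (interval -0.062 to 0.34, adjusted p = 0.465).

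Other dentate markers have metabolic or intracellular roles. Calb1 encodes calbindin, the calcium buffer of mature granule cells. Its range was 11.68 through 11.78 to 11.89 in undisturbed and 11.49 through 11.77 to 11.89 in sleep-deprived animals, with a difference of -0.033 (interval -0.14 to 0.069, adjusted p = 0.757). Tdo2, a tryptophan dioxygenase, differed by -0.14 (adjusted p = 0.301) and Lct, the lactase gene, by -0.012 (0.955). Stxbp6, whose product amisyn binds vesicle fusion proteins, was below the undisturbed mean in all 8 sleep-deprived animals, with a difference of -0.13 (interval -0.23 to -0.034, adjusted p = 0.130). Plk5, a polo-like kinase gene, differed by -0.041 (0.753) and Trpc6, a cation channel gene, by -0.10 (0.411).

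The 3 CA3 genes held no call, with differences between -0.16 and 0.0070. Bok, a BCL2 family gene strong in CA3, was the member with the smallest SD within groups. It ranged from 10.02 through 10.10 to 10.20 in undisturbed and from 9.94 through 10.12 to 10.19 in sleep-deprived animals, a difference of 0.0070 (interval -0.078 to 0.092, adjusted p = 0.949). Nectin3, a cell adhesion gene of CA3 neurons, ranged from 9.37 through 9.56 to 9.79 and from 9.29 through 9.58 to 9.75, a difference of -0.043 (interval -0.18 to 0.091, adjusted p = 0.760). Iyd, an iodotyrosine deiodinase gene, had the largest difference of the 3, -0.16 (adjusted p = 0.253). All 8 sleep-deprived values were below the undisturbed mean of 6.54, and the lowest, 5.87 in replicate 8, was far below the next.

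The 3 measured CA2 genes all differed by 0.051 or less between the groups. Amigo2, an adhesion gene, ranged from 7.27 through 7.41 to 7.67 in undisturbed and from 7.32 through 7.43 to 7.57 in sleep-deprived animals, a difference of -0.0041 (interval -0.12 to 0.11, adjusted p = 0.981). Rgs14, a G-protein regulator that limits plasticity in CA2, ranged from 10.61 through 10.73 to 10.81 and from 10.40 through 10.74 to 10.77. Its difference was -0.051 (interval -0.15 to 0.051, adjusted p = 0.614). Pcp4, a calmodulin regulator, differed by 0.0045 (interval -0.098 to 0.11, adjusted p = 0.975).

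None of the 5 CA1 genes passed, and their median difference was 0.011. Wfs1, which encodes wolframin of the endoplasmic reticulum and marks dorsal CA1, ranged from 10.15 through 10.67 to 10.84 in undisturbed and from 10.25 through 10.57 to 10.89 in sleep-deprived animals. The difference was -0.050 (interval -0.26 to 0.16, adjusted p = 0.823). Pou3f1, a POU-domain transcription factor of CA1, ranged from 9.96 through 10.13 to 10.36 and from 9.65 through 10.10 to 10.34, a difference of -0.048 (interval -0.20 to 0.10, adjusted p = 0.766). Fibcd1, a transmembrane receptor gene, differed by 0.011 (0.947) and Mpped1, a metallophosphoesterase gene, by 0.022 (0.864). Spink8, a protease inhibitor gene, had the largest difference among CA1 genes: 9.33 through 9.58 to 9.66 in undisturbed and 9.40 through 9.70 to 9.81 in sleep-deprived animals. It differed by 0.16 (interval 0.032 to 0.28, adjusted p = 0.155), with 7 of 8 sleep-deprived animals above the undisturbed mean.

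**Figure D2:**
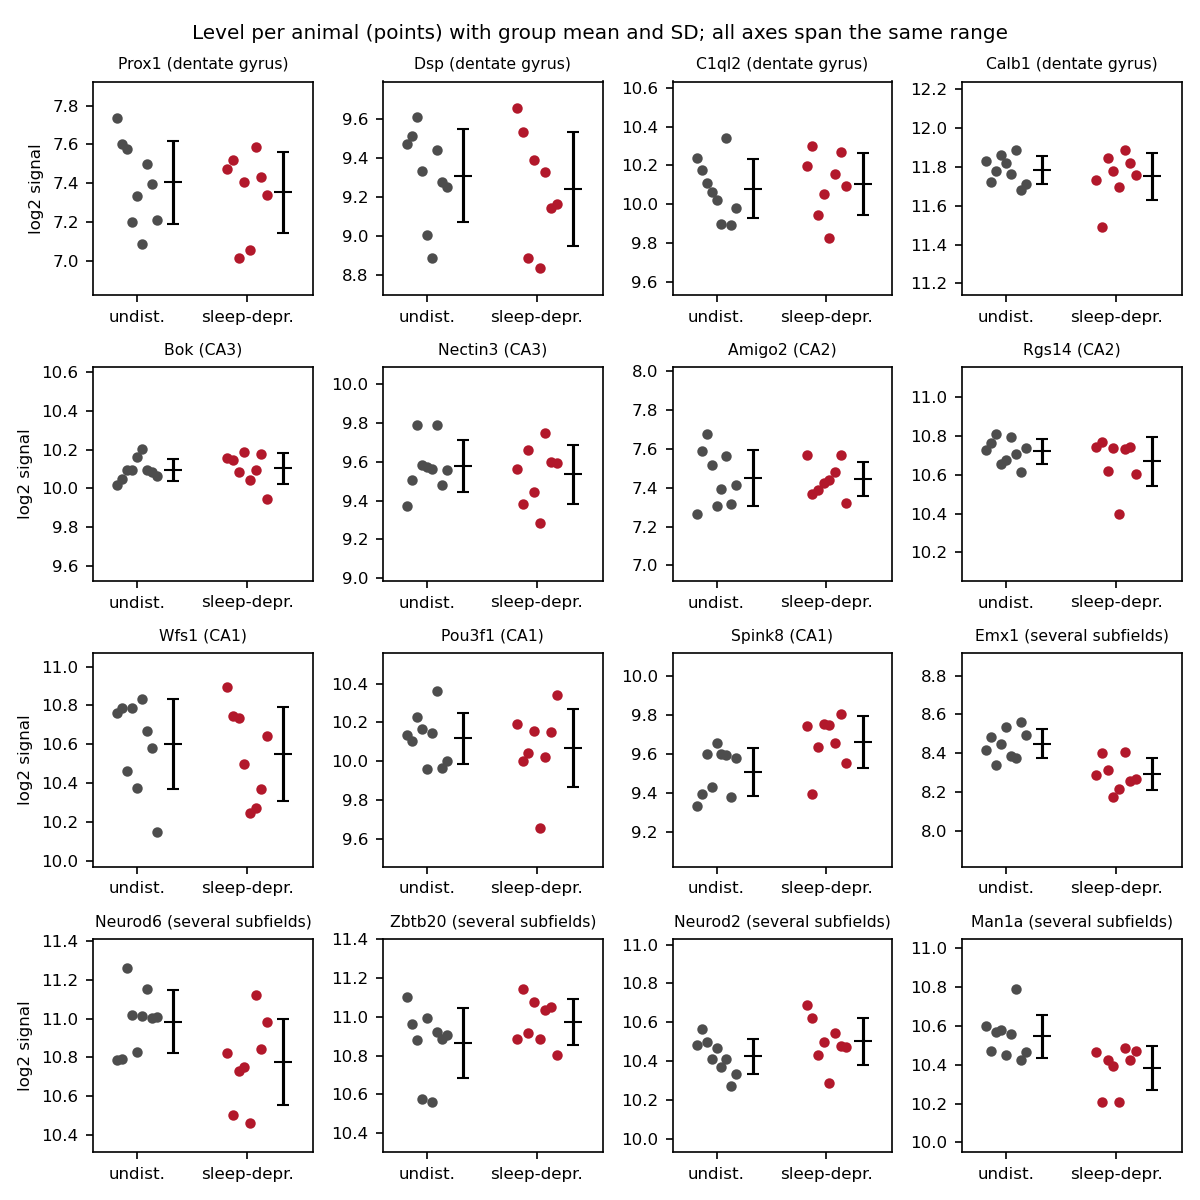
Log2 signal of 16 marker genes in each animal (points; grey undisturbed, n = 9; red sleep-deprived, n = 8), with the group mean and SD beside the points. All vertical axes span the same range, so the panels show both the overlap of the groups and how far animals of 1 group lie apart, wide for Dsp and Wfs1 and narrow for Bok and Emx1.

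Among the genes that mark several subfields, 1 of the 12 measured passed, Emx1. Neurod6, a basic helix-loop-helix factor of pyramidal neurons, had the largest difference of all members. It ranged from 10.79 through 11.01 to 11.26 in undisturbed and from 10.46 through 10.79 to 11.12 in sleep-deprived animals, a difference of -0.21 (interval -0.38 to -0.037, adjusted p = 0.172). Of the 8 sleep-deprived animals 7 lay below the undisturbed mean, and the ranges overlapped widely. Neurod2, a related factor, differed by 0.078 (interval -0.030 to 0.19, adjusted p = 0.443). Zbtb20, a zinc finger factor that directs CA1 fate, ranged from 10.56 through 10.91 to 11.10 and from 10.80 through 10.97 to 11.14, a difference of 0.11 (interval -0.034 to 0.25, adjusted p = 0.419). Man1a, a Golgi mannosidase gene, came nearest to the threshold after Emx1, at -0.16 (adjusted p = 0.0998), and all 8 sleep-deprived animals were below the undisturbed mean.

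The remaining genes of this list gave differences between -0.11 and 0.087. Lhx2, a LIM-homeobox factor of the cortical primordium, differed by -0.094 (adjusted p = 0.408), and Tyro3, a receptor tyrosine kinase gene, by -0.11 (0.435). Dkk3, a secreted Dickkopf-family gene, differed by 0.087 (0.404). Meis2 (-0.019, 0.908), Bcl11b (-0.027, 0.827), Pdzd2 (-0.0072, 0.974) and Ociad2 (-0.028, 0.783) lay close to 0. Bcl11b encodes a zinc finger factor of granule cells and CA1 neurons, and Meis2 a homeobox factor.

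The 34 genes were covered by 81 probe sets, and 20 genes had more than 1. In a fit over all 45037 probe sets none of the 81 passed an adjusted p of 0.05, where 1.81% of all probe sets did, and 11 of 81 had an unadjusted p under 0.05, where 15.3% did. The difference between each further probe set of a gene and its brightest was tested as well. None of the 47 such pairs of the members passed, with 0.0974 as the lowest adjusted p, against 1.30% of 16752 pairs of all genes. The probe sets of C1ql3 came nearest. Its brightest showed -0.12, while the others showed 0.12 and 0.092, and the difference between the first of these and the brightest was 0.25 (SE 0.072, limma adjusted p = 0.0974).

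Probe sets of 1 gene also varied together to unlike degrees. Zbtb20 had 9 probe sets, of which 8 showed differences between 0.054 and 0.13 and the dimmest -0.052, and after removal of group means each of the further 8 correlated with the brightest at r of 0.67 to 0.90 over the 17 arrays. The 3 probe sets of Prox1 differed by -0.051, -0.14 and 0.11, and the 3 of Dsp by -0.068, -0.11 and 0.14, in order of falling brightness. Each further Prox1 and Dsp probe set correlated with the brightest at 0.70 to 0.90. The 2 Emx1 probe sets did not vary together, at r = -0.028, and for Nectin3 the 6 probe sets gave -0.34 to 0.65. Stxbp6 had 2 probe sets, at -0.13 and 0.017, with r = 0.58. These correlations describe the probe sets, share library and array, and carry no test.

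**Figure D3:**
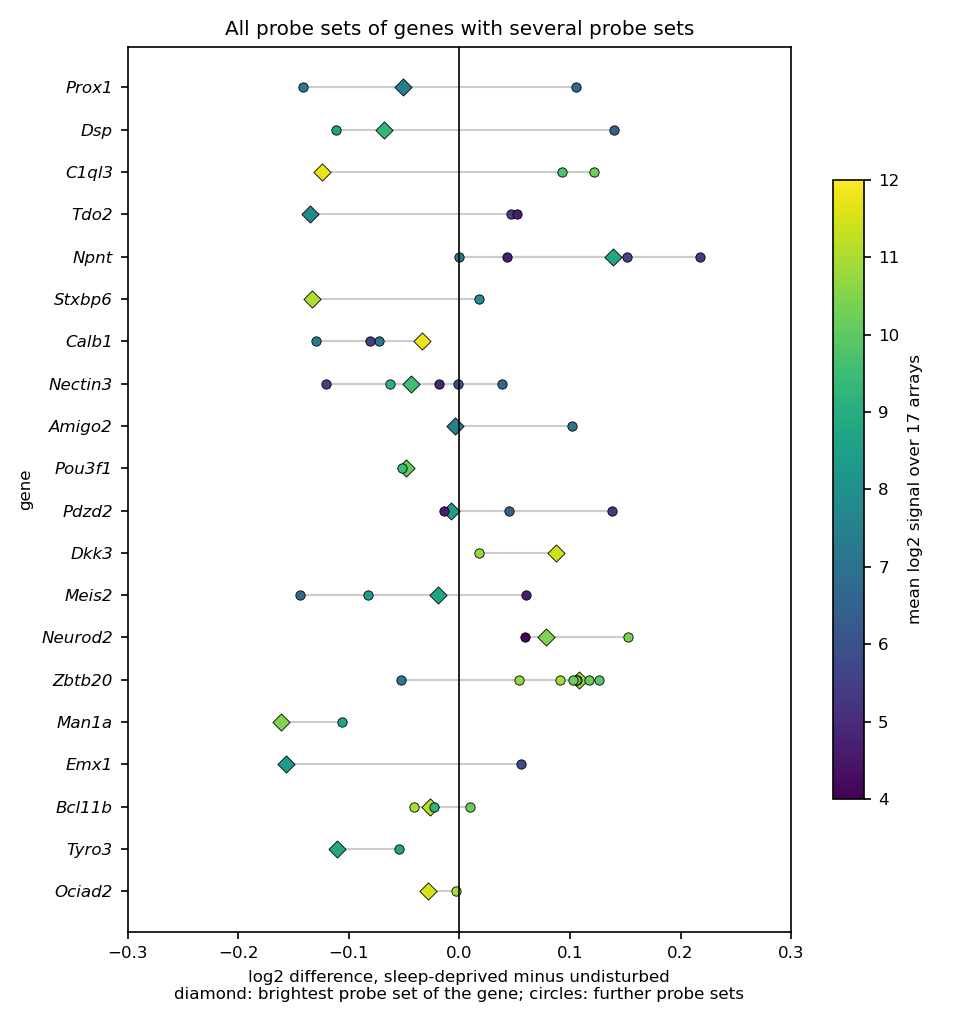
Log2 difference between sleep-deprived (n = 8) and undisturbed (n = 9) animals for every probe set of the 20 marker genes with more than 1, a diamond for the brightest probe set and circles for the others, coloured by mean log2 signal. The 9 probe sets of Zbtb20 lie together apart from the dimmest, which is below 0. Those of C1ql3, Emx1 and several other genes, among them Prox1, Dsp and Stxbp6, also lie on both sides of 0.

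A second list of 25 subfield genes, drawn from known anatomy and not among the members, was read in the same fit. Of these 23 were measured, and 2 rose and 1 fell, where 3.97% of all genes passed in either direction. Rasl10a, a small Ras-like GTPase gene, ranged from 9.17 through 9.52 to 9.61 in undisturbed and from 9.62 through 9.77 to 9.83 in sleep-deprived animals, without overlap. It rose by 0.30 (SE 0.056, limma adjusted p = 0.00366), or 1.23-fold. Gpr161, a receptor gene of primary cilia, ranged from 9.16 through 9.41 to 9.56 and from 9.40 through 9.67 to 9.82 and rose by 0.27 (adjusted p = 0.0215). Epha7, an ephrin receptor gene, ranged from 9.97 through 10.08 to 10.29 and from 9.53 through 9.90 to 9.99 and fell by 0.27 (adjusted p = 0.0183). The median of the 23 was -0.11, with 5 differences above 0 and 18 below, and 10 had an unadjusted p under 0.05. Of all 18193 genes, 9248 differences were above 0 and 18.6% had an unadjusted p under 0.05. The list and the members were both chosen with results of these arrays known, so these counts describe the genes and do not compare the lists. Gpr161 (adjusted p = 0.159) and Epha7 (0.384) no longer passed when all probe sets of a gene were averaged.

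Other cell populations of the same tissue gave few calls, where 3.97% of all genes passed in either direction. None of 11 interneuron genes passed, the lowest adjusted p being 0.0962, and their median difference was -0.024. Of 8 genes of immature dentate neurons 1 rose, the transcription factor gene Sox11 (0.40, adjusted p = 0.00115), which ranged from 9.00 to 9.41 in undisturbed and from 9.30 to 9.77 in sleep-deprived animals. Dcx, the doublecortin gene of the same list, differed by -0.18 (adjusted p = 0.273). In that list 2 differences were above 0 and 6 below, with a median of -0.047. None of 8 genes of excitatory neurons at large passed, and 1 of their differences was above 0 and 7 below, with a median of -0.065. None of the 11 choroid plexus genes passed either, although all 11 differences were above 0, with a median of 0.24.

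Several markers varied widely between animals of 1 group. The SD within groups had a median of 0.132 over the members and 0.115 over all genes, and 21 of the 34 lay above the latter. Dsp, with an SD of 0.265, stood at the 99.0th percentile of all genes, Wfs1 (0.236) at the 98.4th, Npnt (0.231) at the 98.2nd and Prox1 (0.213) at the 97.3rd. Bok (0.0691) stood at the 7.11th. In Dsp the lowest and highest undisturbed animals were replicates 6 and 3.

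The genes of each subfield were also averaged in each animal. The dentate gyrus mean, with each gene centred on all arrays, ran from -0.17 in undisturbed replicate 6 to 0.15 in replicate 7, and from -0.23 in sleep-deprived replicate 5 to 0.089 in replicate 6. The group means differed by -0.049, and the SD between animals was 0.12 in each group. The CA1 mean ran from -0.19 in undisturbed replicate 9 to 0.091 in replicate 7, and from -0.17 in sleep-deprived replicate 5 to 0.18 in replicate 1. The subfields did not always move together. Undisturbed replicate 6 was low for the dentate gyrus (-0.17) and not for CA1 (0.062), CA3 (0.048) or CA2 (0.010). Undisturbed replicate 9 was low for CA1 (-0.19) and near 0 for CA3 (-0.0016). Sleep-deprived replicate 8 was low for CA3 (-0.24), where Iyd contributes its outlying value, and above 0 for CA1 (0.049).

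In 4 animals the means of all 4 subfields were below 0. Sleep-deprived replicate 5 had -0.23 for the dentate gyrus, -0.13 for CA3, -0.13 for CA2 and -0.17 for CA1. Its choroid plexus mean was 1.09 and its 3′ to 5′ gap 0.417. Undisturbed replicate 8 had -0.068, -0.036, -0.090 and -0.13 in the same order, with a choroid plexus mean of -0.26 and a gap of 0.210. The other 2 were undisturbed replicate 9, with a choroid plexus mean of 0.86, and sleep-deprived replicate 2, with -0.34, and their gaps were 0.211 and 0.248. Sleep-deprived replicate 7, whose choroid plexus mean of 1.10 was the highest, had 0.049 for the dentate gyrus, -0.015 for CA3, 0.080 for CA2 and 0.040 for CA1. The part of choroid plexus and RNA quality in these means was not tested.

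**Figure D4:**
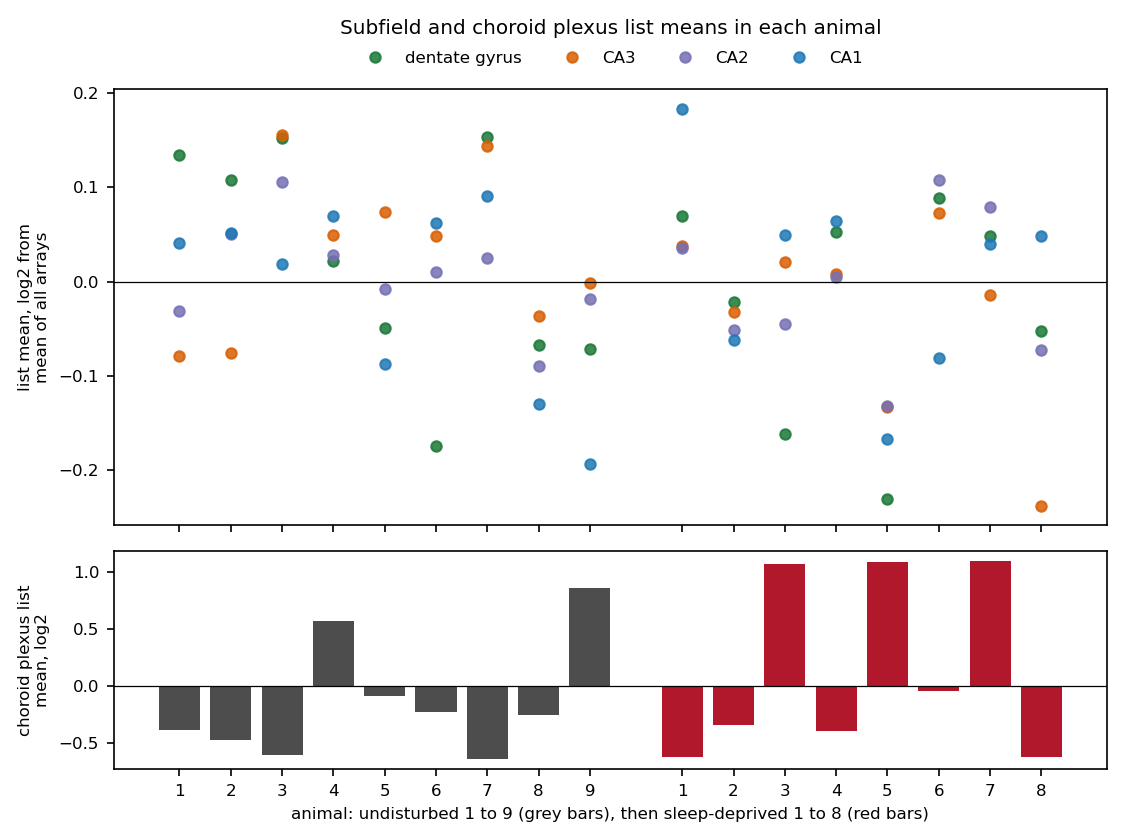
Upper panel: mean of the measured marker genes of each subfield in each animal, in log2 units from the mean of all 17 arrays (green dentate gyrus, orange CA3, purple CA2, blue CA1). Lower panel: the mean of 11 choroid plexus genes in the same animals (grey bars undisturbed, red bars sleep-deprived); undisturbed replicates 8 and 9 and sleep-deprived replicates 2 and 5 are below 0 in all 4 subfields.

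The spread between animals was shared among markers. Correlations between the 34 genes were computed over the 17 arrays after the group means were removed, with a permutation test that shuffled animals within groups (100000 draws, two-sided) and Benjamini-Hochberg adjustment over the 561 pairs. Of these, 49 pairs passed an adjusted p of 0.05 by Pearson's r, all with r above 0, and 30 of them passed by Spearman's rho as well. For comparison, r exceeded 0.5 in 23.7% of member pairs and in 6.03% of all pairs of the 18193 genes, whose median r was 0.011. These 2 shares were not matched for signal: 6182 of the 18193 genes had a mean below 6, against 1 of the 34 members. All values of 1 animal share its dissection, RNA and array.

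Within the dentate gyrus the median r over 55 pairs was 0.48 and 15 pairs passed. Within CA1 it was 0.45 over 10 pairs, within CA3 0.17 over 3 and within CA2 0.12 over 3, and in none of these did a pair pass. Pairs of different subfields, without the genes that mark several, had a median of 0.24, and 5 of 160 passed. Between dentate gyrus genes and genes that mark several subfields the median was 0.27, and 16 of 132 pairs passed. The median for dentate gyrus with CA1 was 0.28 and for dentate gyrus with CA3 0.11. In the undisturbed animals alone the dentate median was 0.51, and in the sleep-deprived animals alone 0.47.

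The 15 dentate pairs that passed were all the pairs among 6 genes, Prox1, Dsp, C1ql2, Lct, Stxbp6 and Plk5, a group seen only after the values were known. Genes of this group also passed with genes that mark several subfields. Dsp did so with Pdzd2 at r = 0.82 (permutation adjusted p = 0.0112), Neurod2 at 0.74 (0.0287) and Bcl11b at 0.74 (0.0246). Prox1 did so with Zbtb20 at 0.68 (0.0455). Dsp and Lct had the highest correlation within the dentate gyrus, r = 0.87 and rho = 0.82 (permutation p = 1e-05, the smallest these draws can give, and 0.00021; adjusted p = 0.00561 and 0.0163). It was 0.92 in undisturbed and 0.86 in sleep-deprived animals, and 0.86 without the 2 animals farthest from the Dsp median. Prox1 correlated with Plk5 at r = 0.83 and rho = 0.81 (permutation p = 0.00011 and 0.00032, adjusted p = 0.0112 and 0.0163), and at 0.77 without the 2 animals farthest from the Prox1 median. Prox1 with Stxbp6 had r = 0.82 and rho = 0.80 (permutation p = 0.00012 and 0.00032, adjusted p = 0.0112 and 0.0163), and 0.82 without those animals. This pair depended on the processing. Its r ran from 0.43 to 0.83 over 5 other settings, with a permutation adjusted p of up to 0.374, and it no longer passed in 2 of them. The other 5 dentate genes, C1ql3, Tdo2, Npnt, Trpc6 and Calb1, had no pair among themselves that passed, with a median r of 0.45.

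Of the 6 genes, 5 were lowest among undisturbed animals in replicate 6, and C1ql2 in replicate 8. Among sleep-deprived animals, Prox1 and Lct were lowest in replicate 3, and the other 4 in replicate 5. Without the 2 animals farthest from the median of the first gene of each pair, the median r of the 15 pairs was 0.71. Animals far from the median of the second gene were kept. After the choroid plexus mean was also removed from the values, 15 of the 561 pairs passed, the dentate median was still 0.48, and the median of the 15 pairs among the 6 genes went from 0.77 to 0.68. Prox1 with Plk5 then had r = 0.73 (adjusted p = 0.0519) and Prox1 with Dsp 0.68 (0.0664), while Dsp with Lct kept 0.86. Fewer pairs also passed without sleep-deprived replicate 5 (23 pairs), sleep-deprived replicate 3 (32) or undisturbed replicate 6 (32), and the dentate median lay between 0.45 and 0.57 when any array was left out.

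Several of the strongest correlations joined genes of different lists. Mpped1 of CA1 and Tyro3 had r = 0.87 and rho = 0.86 (permutation p = 2e-05 and 3e-05; adjusted p = 0.00561 and 0.0163), and 0.81 without the 2 animals farthest from the Mpped1 median. Wfs1 and Tyro3 had r = 0.81 and rho = 0.76 (permutation p = 0.00017 and 0.00113, adjusted p = 0.0112 and 0.0317), and 0.69 without the 2 animals farthest from the Wfs1 median. Tyro3 is strong in CA1 and in cortical neurons. Nectin3 of CA3 and Neurod6 had r = 0.86 and rho = 0.85 (permutation p = 7e-05 for both, adjusted p = 0.0112 and 0.0163). Their r was 0.78 without the 2 animals farthest from the Nectin3 median, but fell to 0.57 (permutation adjusted p = 0.109) when all probe sets of a gene were averaged. Over the 5 other processing settings run for the correlations, the r of Nectin3 and Neurod6 went as low as 0.32. The highest permutation adjusted p was 0.493, and the pair no longer passed in 2 of the 5. The 9 genes that took part in no pair that passed were Emx1, Bok, Iyd, Amigo2, Pcp4, Spink8, Dkk3, Tdo2 and Trpc6. The best partner of Emx1 was Zbtb20, at r = 0.25 (permutation adjusted p = 0.611).

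**Figure D5:**
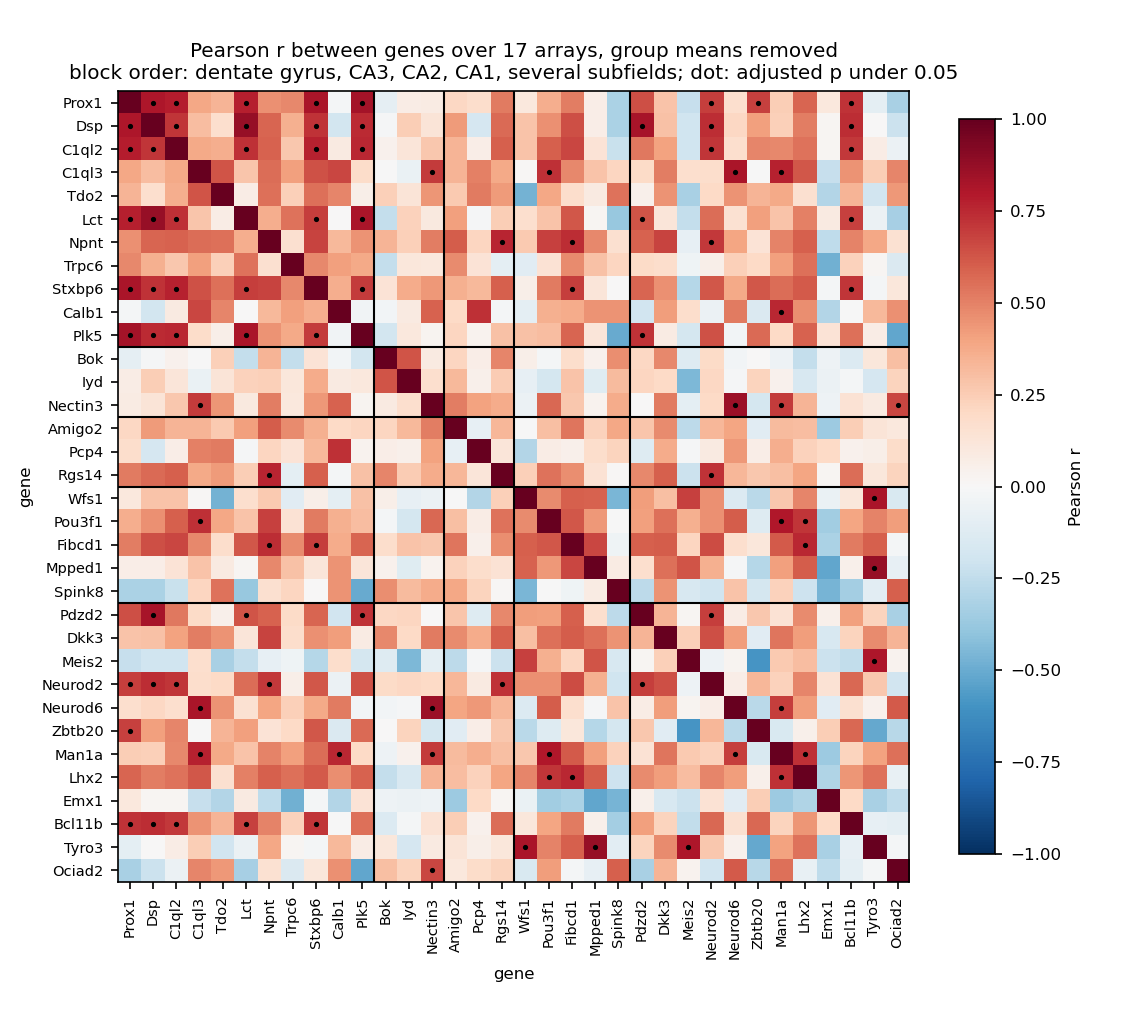
Pearson's r between the 34 measured marker genes over the 17 arrays after removal of group means, ordered by subfield (black lines), with a dot for each of the 49 pairs whose permutation p passed 0.05 after Benjamini-Hochberg adjustment over 561 pairs. Dark red cells join Prox1, Dsp, C1ql2, Lct, Stxbp6 and Plk5, while the row of Emx1 has no dot.

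The windows before the RefSeq starts of 4 of the 6 covarying dentate genes are shown to let their sequences be compared, as members that moved together. Each has 250 bases, written along the strand of its gene in GRCm38.p6, with CANNTG in capitals. They lie at chr1:190170828-190171077 (Prox1, minus strand), chr13:38151044-38151293 (Dsp, plus strand), chr1:128328319-128328568 (Lct, minus strand) and chr10:80356209-80356458 (Plk5, plus strand):
Prox1: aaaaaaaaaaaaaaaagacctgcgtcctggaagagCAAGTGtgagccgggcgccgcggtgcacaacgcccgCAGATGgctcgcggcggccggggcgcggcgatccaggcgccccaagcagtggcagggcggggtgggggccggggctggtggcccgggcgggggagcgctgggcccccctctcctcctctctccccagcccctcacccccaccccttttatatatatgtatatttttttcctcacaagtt
Dsp: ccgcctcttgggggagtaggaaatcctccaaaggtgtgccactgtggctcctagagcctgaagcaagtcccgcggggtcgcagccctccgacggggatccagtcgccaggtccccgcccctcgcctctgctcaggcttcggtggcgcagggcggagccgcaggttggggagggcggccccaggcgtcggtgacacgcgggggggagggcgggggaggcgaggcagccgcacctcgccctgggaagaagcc
Lct: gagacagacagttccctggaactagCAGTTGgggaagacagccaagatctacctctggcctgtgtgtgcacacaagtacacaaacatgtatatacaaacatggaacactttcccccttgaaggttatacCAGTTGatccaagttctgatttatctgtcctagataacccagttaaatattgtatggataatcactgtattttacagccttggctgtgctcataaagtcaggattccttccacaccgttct
Plk5: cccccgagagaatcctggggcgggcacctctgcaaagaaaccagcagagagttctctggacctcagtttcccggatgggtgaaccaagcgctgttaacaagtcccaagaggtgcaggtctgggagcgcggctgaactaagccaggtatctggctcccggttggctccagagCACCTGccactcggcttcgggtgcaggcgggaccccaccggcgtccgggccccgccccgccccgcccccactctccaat
Prox1 and Lct hold 2 matches each, Plk5 holds 1 and Dsp none, and their share of G and C runs from 42.8% in Lct to 72.4% in Dsp. CANNTG reads the same on both strands, and it was found in 66.2% of all 32851 windows and in 13 of the 30 members with an entry. TAATTA, the core of many homeodomain sites, was in 0 of 30 members and 4.84% of all windows, and TGACGTCA, the full cyclic AMP response element, in 0 of 30 and 1.55%. None of these 3 sets of letters contains another. A match describes these letters in this window only.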

How the data were processed

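The measurements are the log2 signals of 45101 probe sets that the authors deposited for 17 arrays, 1 per animal; per the submitters' processing notes they were made with RMA in the affy package, with no version stated there. That the scale is log2 was read from the range of the values. The labels name no batch. Array identity was checked: no pair of arrays held identical values, and correlations between arrays lay between 0.993 and 0.998. After 64 control probe sets were removed, 34945 probe sets named 1 gene, 932 named several and 9160 none in the platform annotation. The brightest probe set of each gene was kept, giving 18193 genes. Groups were compared with limma 3.58.1 in R 4.3.3 (lmFit and eBayes, no covariate), with Benjamini-Hochberg adjustment over all genes or all probe sets.

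On simulated data of the same size, the fit recovered 64 of 100 genes changed by 0.25 and 98 of 100 changed by 0.5 on the log2 scale. It also called 9 unchanged genes. Each gene was drawn independently, so the draws lack the variation that genes share in these arrays, and the recovery may differ there. The number of arrays limits the precision. Alternatives covered the normalization, the choice of probe set, a filter at a mean of 6, the variance prior, array weights, a replicate block, covariates for choroid plexus and RNA quality, and leaving out each array. Those for the correlations, and the test between probe sets, were chosen after seeing the data. The members and all gene lists were chosen with earlier results of these data known. Genes named in full were every member that passed, a fixed set of subfield markers (Prox1, C1ql2, Calb1, Wfs1, Pou3f1, Bok, Nectin3, Amigo2, Rgs14, Neurod6 and Zbtb20), members whose probe sets differ and the passing genes of the second subfield list; others, among them Dsp, Spink8, Iyd and Man1a, were described further after their values were seen. Promoter windows are RefSeq's; 30 of the 36 members had an entry. The lists for thalamus, neocortex, striatum, astrocytes, oligodendrocytes and microglia held no call. Of the endothelial list 1 of 5 genes fell, Tek (-0.26, limma adjusted p = 0.0404), where 2.73% of all genes fell.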

Additional observations from a re-analysis of the deposited data

Results flagged for a closer look

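In 78 groups of values (each member and list mean in each group) the highest or lowest animal was set against the rest, and 5 stood far from the others by Dixon's gap criterion, where chance alone gives about 1 in 20. Of these, 3 were sleep-deprived replicate 5, which had the lowest value of its group for Npnt at 8.28 (next 8.74), Rgs14 at 10.40 (next 10.60) and Bcl11b at 10.90 (next 11.11). Iyd was at 5.87 in sleep-deprived replicate 8, with the next animal at 6.30. Man1a was at 10.79 in undisturbed replicate 7, with the next at 10.60.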

How the results depend on the processing

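The absence of higher calls among the 34 genes held under every setting run. The single lower call, Emx1, was lost (0 members lower, and 0 of the several-subfield list) after quantile normalization, with the mean of all probe sets (difference -0.050, adjusted p = 0.701), with the most variable probe set (0.056, adjusted p = 0.832, the opposite sign), with array weights, with the replicate block and with the choroid plexus covariate. It was kept with median centring, the filter at a mean of 6, a trended robust prior and the RNA quality covariate, and leaving out 1 array gave 0 to 1 member calls and Emx1 differences of -0.17 to -0.14. No pairing of the samples by replicate number was evident, though these values cannot exclude one. Deviations of same-numbered animals correlated at -0.159 to 0.393, and 3 of 16 animals correlated best with their own number. The replicate block was run without undisturbed replicate 9, and Emx1 was then at -0.15 (limma adjusted p = 0.0822). Leaving out undisturbed replicate 9 with no block also lost the call (-0.15, limma adjusted p = 0.0674). With the block the second subfield list had 2 lower calls (Cacng5 and Epha7). That list had 2 lower calls with median centring, 3 with the filter or array weights (Gabrd added), 0 lower and 1 higher with averaged probe sets, and 1 to 3 lower when 1 array was left out. Of the members' probe sets, 1 was lower with median centring and 1 higher with array weights or the choroid covariate, and 0 to 1 higher without 1 array. Among all genes, 142 were higher and 611 lower with median centring and 335 and 390 after quantile normalization; without 1 array 150 to 236 were higher and 307 to 581 lower, the fewest lower without undisturbed replicate 4 (307) or sleep-deprived replicate 5 (312) and the fewest higher without undisturbed replicate 8. Pairs of members that passed numbered 22 after quantile normalization, 71 with median centring, 40 with averaged probe sets, 31 with the most variable probe set, 15 with the choroid list removed and 23 to 49 without 1 array; the cause was not tested. The sign of the difference changed for 1 to 4 members without 1 array, all with a reported size of 0.048 or less, and for 0 to 7 under other settings; the 5 with the most variable probe set were Emx1, C1ql3, Stxbp6, Meis2 and Zbtb20.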
